A study of Rattus norvegicus with 14 samples.

Results

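The 3 globin rows Hba1 (ENSRNOG00000029886), Hba2 (ENSRNOG00000047321) and Hbb (ENSRNOG00000058105) and the row of Alas2 (ENSRNOG00000000167) are described here as transcripts of the red cell lineage found in kidney glomeruli. They were chosen by Ensembl ID, and 4 of 4 were present among the 12934 gene rows of the count table. The names came with the list of IDs; the deposited tables do not pair IDs with names, so the names could not be checked against them. Male rats of the salt-sensitive strain Dahl SS/JrHsdMcwiCrl gave the tissue: cortical glomeruli, the capillary tufts in which the kidney filters blood, isolated by sieving and then snap frozen. In 7 libraries the diet was high salt (4% NaCl) and in 7 it was normal salt (0.4% NaCl), in both cases for 21 days beginning at an age of 8 weeks. Strain and sex were shared by all 14, and the labels name no other allele or agent. Libraries were 3' tag libraries (Lexogen QuantSeq FWD, Illumina NextSeq500), in which a transcript is read near its 3' end. Each library carries a sample number from 9 to 24, odd on high salt and even on normal salt, and what the number records is not given in the sources used here. The labels do not say that each library is a separate rat, so any p-value refers to variation among libraries, part of which may be technical.

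Hemoglobin of adult red cells is built from alpha chains, encoded by Hba genes, and beta chains, encoded by Hbb genes. Alas2 encodes the erythroid 5-aminolevulinate synthase, the first and rate-limiting enzyme of heme synthesis in red cell precursors. Young red cells (reticulocytes) in the circulation still carry these messages, which is why globin transcripts are widely read as a sign of blood in a tissue. In bulk tissue RNA, fewer red cells and less globin message per cell cannot be told apart.

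The windows before the transcription start are shown as background on the genes. Whether promoter sequence bears on the covariation described below was not tested. Sequences are from RefSeq (build GRCr8), the 250 bases before the start, 5′ to 3′. Symbols were matched by name: Hbb and Alas2 matched 1 record each, whereas the name Hba1 is a synonym of 2 RefSeq genes, Hba-a1 and Hba-a2, and both windows are given without assigning either to a row. Capitals mark 4 motifs searched on both strands: GATAA (read as TTATC on the other strand), then CCAAT (as ATTGG), then CACCC (as GGGTG), then ATAAA (as TTTAT).
Hba-a1, chr10:15842581-15842830, minus strand: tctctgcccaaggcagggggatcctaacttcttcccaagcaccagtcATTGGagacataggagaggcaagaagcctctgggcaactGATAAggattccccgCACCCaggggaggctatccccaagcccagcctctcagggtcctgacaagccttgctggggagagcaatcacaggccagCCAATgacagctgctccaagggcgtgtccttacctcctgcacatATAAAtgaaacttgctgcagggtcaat
Hba-a2, chr10:15829139-15829388, minus strand: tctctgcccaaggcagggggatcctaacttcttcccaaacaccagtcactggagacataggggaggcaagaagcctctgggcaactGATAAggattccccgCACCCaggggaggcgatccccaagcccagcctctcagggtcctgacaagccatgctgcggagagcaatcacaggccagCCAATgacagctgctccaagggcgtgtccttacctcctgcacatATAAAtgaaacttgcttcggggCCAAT
Hbb, chr1:167663722-167663971, minus strand: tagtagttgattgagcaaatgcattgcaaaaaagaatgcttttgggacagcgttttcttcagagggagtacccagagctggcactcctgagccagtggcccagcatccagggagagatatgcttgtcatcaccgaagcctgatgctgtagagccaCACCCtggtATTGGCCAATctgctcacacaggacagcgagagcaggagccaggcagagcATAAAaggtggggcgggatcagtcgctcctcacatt
Alas2, chrX:22895200-22895449, plus strand: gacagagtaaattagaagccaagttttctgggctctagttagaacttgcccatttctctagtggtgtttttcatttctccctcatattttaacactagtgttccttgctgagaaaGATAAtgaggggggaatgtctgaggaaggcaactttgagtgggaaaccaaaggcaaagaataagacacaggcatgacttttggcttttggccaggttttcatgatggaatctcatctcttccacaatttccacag

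The windows of Hba-a1 and Hba-a2 had the same base at 241 of 250 positions (96.4%), against 50 of 250 (20%) between Hba-a1 and Hbb, compared position by position without gaps. GATAA, the core letters recognised by GATA factors, was found in the windows of Hba-a1, Hba-a2 and Alas2 (once each), and in 23.5% of all 33469 promoter windows of this length. CCAAT occurred in both alpha windows and in that of Hbb, where it overlaps none of the others but abuts its own reverse form, and in 34% of all windows. CACCC occurred once in the same 3 windows (49.2% of all), as did ATAAA, the TATA-like letters (39.3% of all). These are letter matches only. RefSeq lists 3 genes whose symbol starts with Hba and 5 whose symbol starts with Hbb, and how reads were divided among such copies is not given in the sources used here, so the split between Hba1 and Hba2, and the level of Hbb, are uncertain.

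The libraries held 13797146 to 18151197 counts each. Levels are given as CPM, the count divided by the library total and scaled, and are not divided by transcript length, so levels of different genes compare numbers of 3' tags. The share of counts held by the 10 most abundant genes differed widely, with 30.8% in library 21 as the lowest and 64.9% in library 15 as the highest. The CPM of any other gene depends in part on that share. Orders of libraries given below are by the whole library total. No ID could be matched to a symbol by the reference table (0 of 12934), so glomerular, tubular, white cell and platelet markers could not be read, and whether the globin level follows other blood cells was not tested. Over all 11158 genes tested, edgeR called 0 genes (0%) for diet and 1418 (12.7%) for a linear trend with the sample number.

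Hba1 was the most abundant of the 4 and held rank 20 among all genes of the table by mean CPM. On high salt its level ran from 330.1 CPM in replicate 15 through a median of 920.9 CPM to 3554 CPM in replicate 17. On normal salt it ran from 342.2 CPM in replicate 12 through a median of 1039 CPM to 3666 CPM in replicate 22. The 2 diets thus spanned nearly the same range, and each held libraries at both ends of it. Hba2 (rank 50) ran from 198 CPM in replicate 15 through 525.1 CPM to 2480 CPM in replicate 17 on high salt. Its normal salt libraries ran from 155.4 CPM in replicate 12 through 461.4 CPM to 2178 CPM in replicate 22. The diets again overlapped over nearly their whole range.

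Hbb, the beta chain row, was far lower, at rank 3177. It ran from 4.92 CPM in replicate 21 through a median of 22.2 CPM to 85.8 CPM in replicate 23 on high salt, and from 8.84 CPM in replicate 12 through 28.2 CPM to 99.1 CPM in replicate 10 on normal salt. The normal salt library with the most Hba1, replicate 22, had only 24.2 CPM of Hbb. Alas2 (rank 7136) ran from 1.61 CPM in replicate 11 through 4.63 CPM to 24.1 CPM in replicate 17 on high salt. On normal salt it ran from 1.45 CPM in replicate 12 through 4.48 CPM to 18.9 CPM in replicate 22. Alas2 rested on 20 to 397 counts per library. The exact (Clopper-Pearson) 95% interval was 0.885 to 2.24 CPM for the lowest library and 21.8 to 26.6 CPM for the highest, so the spread was larger than counting error, which is all that these intervals cover.

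**Figure D1:**
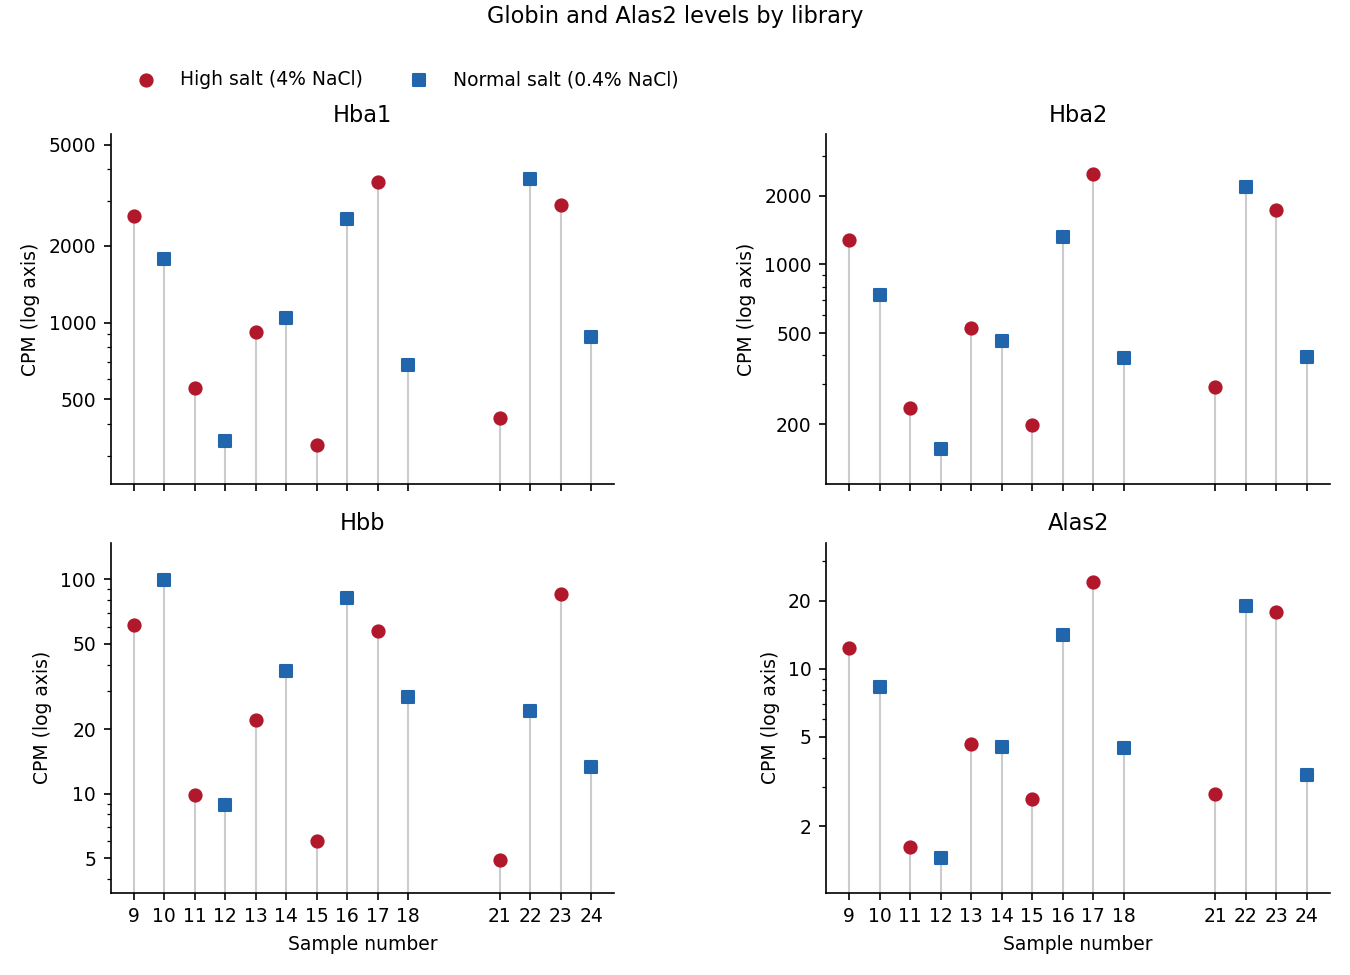
CPM of each of the 4 genes (log axis) against the sample number, 1 point per library, circles for high salt and squares for normal salt. Libraries 9, 10, 16, 17, 22 and 23 stand high for Hba1, Hba2 and Alas2, and both diets are among them.

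The 3 globin rows together held 0.251% ± 0.202 of all counts (SD, n = 14), from 0.0507% in normal salt replicate 12 to 0.609% in high salt replicate 17, a 12-fold range. Sorted by the summed globins, neighbouring libraries differed by at most 0.76 on the log2 scale within a range of 3.59. This widest step lay between normal salt replicates 14 (1538 CPM) and 10 (2606 CPM). Whether the libraries form clusters was not tested. The SD of log2 CPM over the 14 libraries was 1.25 for Hba1, 1.32 for Hba2, 1.47 for Hbb and 1.33 for Alas2, beside a median of 0.337 over the 11158 genes that passed the filter on low counts. All 4 passed that filter. Only 15 genes (0.134%) had a larger SD than Hbb, and 51 (0.457%) a larger one than Hba1. This variability was present inside each diet: Hba1 varied 10.8-fold among the high salt and 10.7-fold among the normal salt libraries.

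The 4 transcripts rose and fell together from library to library. Hba2 encodes a globin chain and Alas2 an enzyme of the same cell lineage. Their log2 CPM correlated with Pearson r = 0.99 over 14 libraries (permutation p = 1e-05, the smallest that 100000 permutations can give). The Benjamini-Hochberg adjusted permutation p was 2e-05 over the 6 pairs. Spearman rho was 0.99 (permutation p = 1e-05). For Hba1 with Alas2, r was 0.96 and rho 0.96, and for Hba1 with Hba2 both were 0.98 (permutation p = 1e-05 and adjusted p = 2e-05 for each). What the assignment of reads between near-identical alpha genes adds to the last value was not tested. Without the 2 libraries farthest from the median of the first gene of the pair, r was 0.98 for Hba2 with Alas2, 0.94 for Hba1 with Alas2 and 0.98 for Hba1 with Hba2. Within each diet these 3 correlations ran from 0.949 to 0.991 (n = 7, exact permutation, highest adjusted p = 0.00952). Within sample numbers 9 to 16 (n = 8) and 17 to 24 (n = 6) they ran from 0.946 to 0.994 (exact permutation, highest adjusted p = 0.0333). Within 17 to 24 rho was 0.89 to 0.94 and did not pass below 0.05 (exact permutation, adjusted p = 0.05 to 0.0667).

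Hbb followed the others less closely. Its r was 0.84 with Hba1 (rho = 0.77), 0.78 with Hba2 (rho = 0.75) and 0.80 with Alas2 (rho = 0.76), with adjusted permutation p = 0.000645, 0.00174 and 0.00128 for r and 0.00277 for each rho. Without the 2 farthest libraries these r were 0.74 to 0.80. Within high salt they were 0.910 to 0.975 (n = 7, exact permutation, highest adjusted p = 0.0153), but rho did not pass for Hbb with Hba2 (0.79, exact permutation, adjusted p = 0.0576) or with Alas2 (0.75, adjusted p = 0.0663). Within normal salt they were 0.59 to 0.68 and did not pass (n = 7, exact permutation, lowest adjusted p = 0.137), and within numbers 17 to 24 they were 0.76 to 0.81 (n = 6, exact permutation, lowest adjusted p = 0.0646). Whether the diets differ in this correlation was not tested. Without normal salt replicate 22, r over 13 libraries was 0.92 for Hbb with Hba1.

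**Figure D2:**
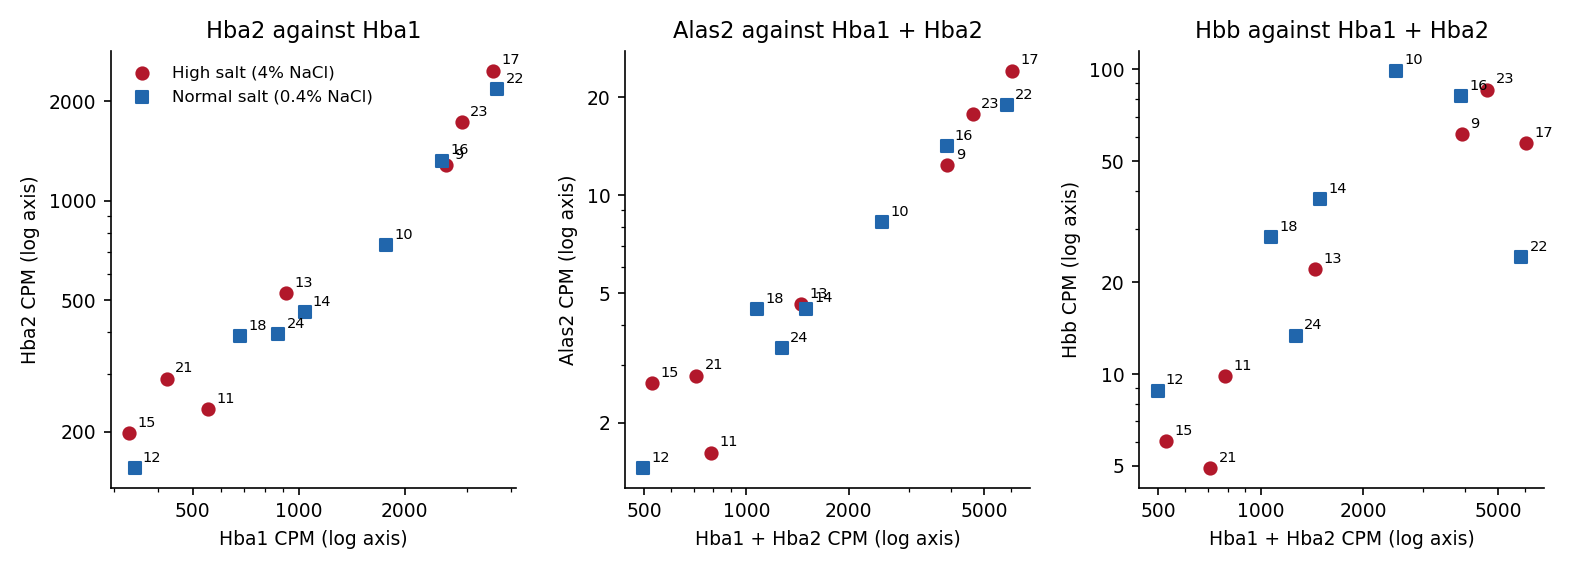
CPM of Hba2 against Hba1, and of Alas2 and Hbb against the sum of Hba1 and Hba2, on log axes, with 1 point per library labelled by its sample number. Alas2 and Hba2 lie close to a line, and for Hbb library 22 lies far below the others of like alpha globin level.

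Alas2 kept pace with the globins nearly in proportion. In a fit over all genes with diet in the model, its level changed by 1.03 ± 0.07 (SE) on the log2 scale for each log2 unit of the summed globins, of which it is no part (edgeR quasi-likelihood, adjusted p = 1.981e-07 over 11158 genes). Its 95% interval, 0.88 to 1.18, includes strict proportion. Among the 11154 genes that were not members, 0.152% were called in the same fit. With the sample number also in the model the slope of Alas2 was 1.02. In the reverse fit, on Alas2 in place of the globins, the slope was 0.87 ± 0.07 for Hba1, 0.95 ± 0.05 for Hba2 and 0.92 ± 0.16 for Hbb (SE; edgeR, adjusted p = 2.28e-06, 5.97e-09 and 0.02146).

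No difference between the diets beyond the spread between libraries was found for any of the 4 transcripts. Mean Hba1 was 1615 ± 1361 CPM with high salt against 1562 ± 1188 CPM with normal salt (SD, n = 7 each). For Hba2 they were 963.6 ± 890.7 and 805.1 ± 711.9 CPM. The Hbb means were 35.3 ± 32.4 and 41.9 ± 34.9 CPM, and those of Alas2 were 9.42 ± 8.84 and 7.87 ± 6.40 CPM, high salt first. The SD of each gene was close to its mean. Exact permutation tests of these means (two-sided, 3432 splits) gave p = 0.941 for Hba1, 0.719 for Hba2, 0.724 for Hbb and 0.717 for Alas2.

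Fitted log2 fold changes, high against normal salt, were 0.15 ± 0.58 (SE) for Hba1, 0.38 ± 0.62 for Hba2, -0.18 ± 0.65 for Hbb and 0.37 ± 0.62 for Alas2. None of the 4 was called (edgeR quasi-likelihood, adjusted p = 0.9997 for each), as was none of the other genes (0% called). At an unadjusted p below 0.05 there were 202 of 11158 genes, against 259 with DESeq2, 562 by limma voom, 468 with the number as a covariate and 665 when consecutive numbers formed blocks. Leaving out normal salt replicate 22 gave 597, high salt replicate 9 gave 334 and normal salt replicate 10 gave 131. Evenly spread p-values would put a share of 0.05 of the genes below that cut. The 202 of the main fit lay well under that share, and the 562 and 665 lay near it. Over all genes the median absolute log2 fold change was 0.108. The 95% intervals were wide, from -1.07 to 1.37 for Hba1, -0.94 to 1.69 for Hba2, -1.55 to 1.18 for Hbb and -0.94 to 1.68 for Alas2. A 2-fold rise lay within all 4 intervals, and a 2-fold fall within those of Hba1 and Hbb. Direction depended on single libraries: without high salt replicate 17 the log2 fold change was -0.24 for Hba1, -0.14 for Hba2 and -0.13 for Alas2, and without normal salt replicate 22 it was 0.47, 0.80 and 0.70. For Hbb it was 0.14 without normal salt replicate 10.

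The sign of the diet difference was also opposite in the lower and the upper sample numbers, inside wide errors. Within numbers 9 to 16 (4 libraries per diet) the log2 fold changes were -0.44 ± 0.61 for Hba1, -0.33 ± 0.62 for Hba2, -1.26 ± 0.70 for Hbb and -0.46 ± 0.66 for Alas2 (SE). Within numbers 17 to 24 (3 per diet) they were 0.65 ± 0.82, 0.86 ± 0.85, 1.33 ± 0.83 and 0.98 ± 0.81 in the same order. No member was called in either range (edgeR, lowest adjusted p = 0.9573). The difference between these 2 ranges was not tested. A linear interaction of diet with sample number, from number 9 to 24, was -0.07 ± 1.92 (SE) for Hba1, -0.14 ± 2.07 for Hba2, 3.17 ± 2.04 for Hbb and 0.43 ± 2.07 for Alas2 on the log2 scale, so its sign for Hba1 and Hba2 was not that of the shift between the ranges. It passed for none of the 4 (edgeR, adjusted p = 0.9996, 0.9985, 0.9981 and 0.9981). Over all genes 0% were called, with 213 at an unadjusted p below 0.05, a count between 133 (high salt replicate 11 left out) and 592 (normal salt replicate 24 left out). Leaving out high salt replicates 9, 21 or 23 gave 475, 517 or 320, and leaving out normal salt replicates 10 or 12 gave 139 or 352. In the authors' deposited table, the log2 ratio of the diet means was 0.15 for Hba1, 0.38 for Hba2, -0.18 for Hbb and 0.38 for Alas2.

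A linear trend with the sample number passed for none of the 4 transcripts. Over all genes 12.7% were called, so 0 of 4 does not set these transcripts apart from other genes. The share called was itself unstable. It was 4% when library 22 was dropped and 18.8% when library 23 was. A different contrast, numbers 9 to 16 against 17 to 24, called 0%. Its lowest adjusted p was 0.05084, just above the cut, and 2963 of 11158 genes had an unadjusted p below 0.05 (edgeR). With diet in the model, the fitted log2 change from number 9 to number 24 was 0.79 ± 0.94 (SE) for Hba1, 1.28 ± 1.02 for Hba2, -0.24 ± 1.07 for Hbb and 1.16 ± 0.99 for Alas2. The adjusted p was 0.5889, 0.4052, 0.8964 and 0.4396 (edgeR quasi-likelihood), and 0 of the 4 were called. The 95% intervals reached from -1.21 to 2.79 for Hba1 and from -2.54 to 2.05 for Hbb. The changes of Hba1, Hba2 and Alas2 were larger in size than the median absolute change over all genes, 0.376, that of Hbb was smaller, and the SE of each exceeded that median. CPM correlated with the number at Pearson r = 0.21 for Hba1 (permutation p = 0.469; rho = 0.17, p = 0.553), 0.29 for Hba2 (permutation p = 0.321; rho = 0.24, p = 0.418), -0.15 for Hbb (permutation p = 0.618; rho = -0.12, p = 0.694) and 0.27 for Alas2 (permutation p = 0.357; rho = 0.24, p = 0.417), over 14 libraries. When libraries 23 and 24 were left out, both at the upper end and the most distant from the median sample number, r was 0.21, 0.33, -0.32 and 0.30. Within each range of numbers the sign of r was negative for all 4 genes, from -0.02 to -0.26 (exact permutation, lowest p = 0.539).

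**Figure D3:**
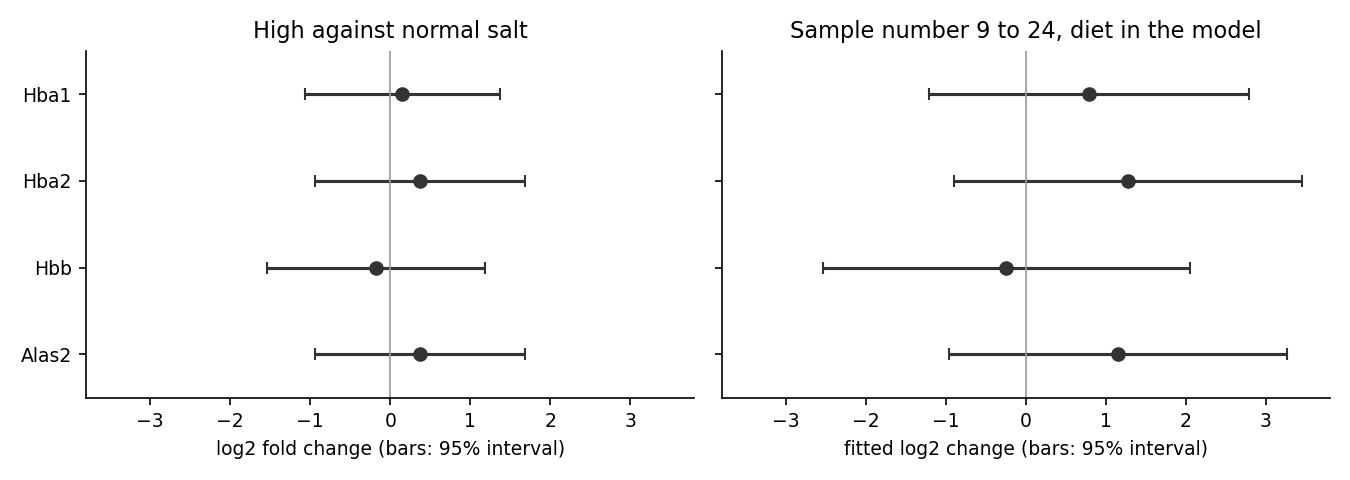
Fitted log2 change of each gene with its 95% interval (bars), for high against normal salt on the left and from sample number 9 to 24 on the right. Each interval includes 0.

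Hba1 was also set against measures of the whole library, and 4 such relations were computed. Its log2 CPM correlated at r = 0.22 with total counts, -0.16 with the share held by the top 10 genes, 0.29 with the number of genes with a count and 0.31 with the first principal component of the other genes (rho = 0.21, -0.20, 0.09 and 0.34). None passed over 14 libraries (permutation p = 0.439, 0.589, 0.338 and 0.279 for r; lowest adjusted p = 0.585, and 0.642 for rho, whose permutation p were 0.462, 0.482, 0.773 and 0.233). Without the 2 farthest libraries r was 0.21, -0.15, -0.41 and 0.38, so the sign of the third rests on those libraries.

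Ratios between members do not depend on the library total. Hba1 exceeded Hba2 in every library, with a log2 ratio of counts of 0.80 ± 0.26 on high salt (lowest 0.52, median 0.74, highest 1.24) and 1.04 ± 0.20 on normal salt (lowest 0.75, median 1.14, highest 1.28; SD, n = 7 each). The difference of -0.23 did not pass (two-sided exact permutation p = 0.0833, adjusted p = 0.167 over the 6 tests on ratios). Against the sample number the ratio had r = -0.51 (permutation p = 0.0654, adjusted p = 0.167; rho = -0.52, permutation p = 0.062). Without numbers 23 and 24 r was -0.76 (permutation p = 0.00541), and without normal salt replicate 24 alone it was -0.74 (permutation, adjusted p = 0.028), so this relation depends on those libraries. It was -0.72 within high salt and -0.55 within normal salt (n = 7 each, exact permutation p = 0.0659 and 0.2), -0.56 within numbers 9 to 16 and 0.61 within 17 to 24. The range of these ratios was narrow beside that of the levels, and it rests on how reads of near-identical alpha genes were split.

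The ratio of alpha globin (Hba1 plus Hba2) to Hbb counts varied more. Its log2 was 6.35 ± 0.49 on high salt (lowest 5.76, median 6.32, highest 7.18) and 5.87 ± 1.07 on normal salt (lowest 4.66, median 5.57, highest 7.92). On normal salt it thus went from 25.3-fold in replicate 10 to 241-fold in replicate 22. The difference between diets, 0.48, did not pass (two-sided exact permutation p = 0.308, adjusted p = 0.394). It was 0.82 without normal salt replicate 22 (exact permutation p = 0.0274, adjusted p = 0.142) and 0.28 without normal salt replicate 10 (exact permutation p = 0.544, adjusted p = 0.553). Within numbers 9 to 16 it was 0.86, and the high salt libraries all lay above the normal salt libraries (exact permutation p = 0.0286, the smallest that 4 against 4 allow; adjusted p = 0.171). Within 17 to 24 it was -0.03, where an exact test of 3 against 3 cannot go below p = 0.1. The correlation with the sample number was r = 0.51 (permutation p = 0.0638, adjusted p = 0.167; rho = 0.40, permutation p = 0.161), and 0.64 without numbers 23 and 24 (permutation p = 0.0248). It was 0.26 within high salt and 0.76 within normal salt (n = 7 each, exact permutation p = 0.579 and 0.0393, adjusted p = 0.579 and 0.118). Only the Hbb row enters this ratio as beta globin. How reads were divided among Hbb copies is not given, so the size of the ratio is uncertain.

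The ratio of the 3 globins to Alas2 varied little beside the levels of its members. Its log2 was 8.18 ± 0.40 on high salt (lowest 7.66, median 8.06, highest 8.95) and 8.30 ± 0.21 on normal salt (lowest 7.95, median 8.30, highest 8.56). The diets differed by -0.12 (two-sided exact permutation p = 0.517, adjusted p = 0.517), and the correlation with the sample number was r = -0.29 (permutation p = 0.328, adjusted p = 0.394; rho = -0.37, permutation p = 0.196), or -0.49 without numbers 23 and 24. The overall SD of this log2 ratio was 0.315, whereas that of log2 Alas2 was 1.35.

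**Figure D4:**
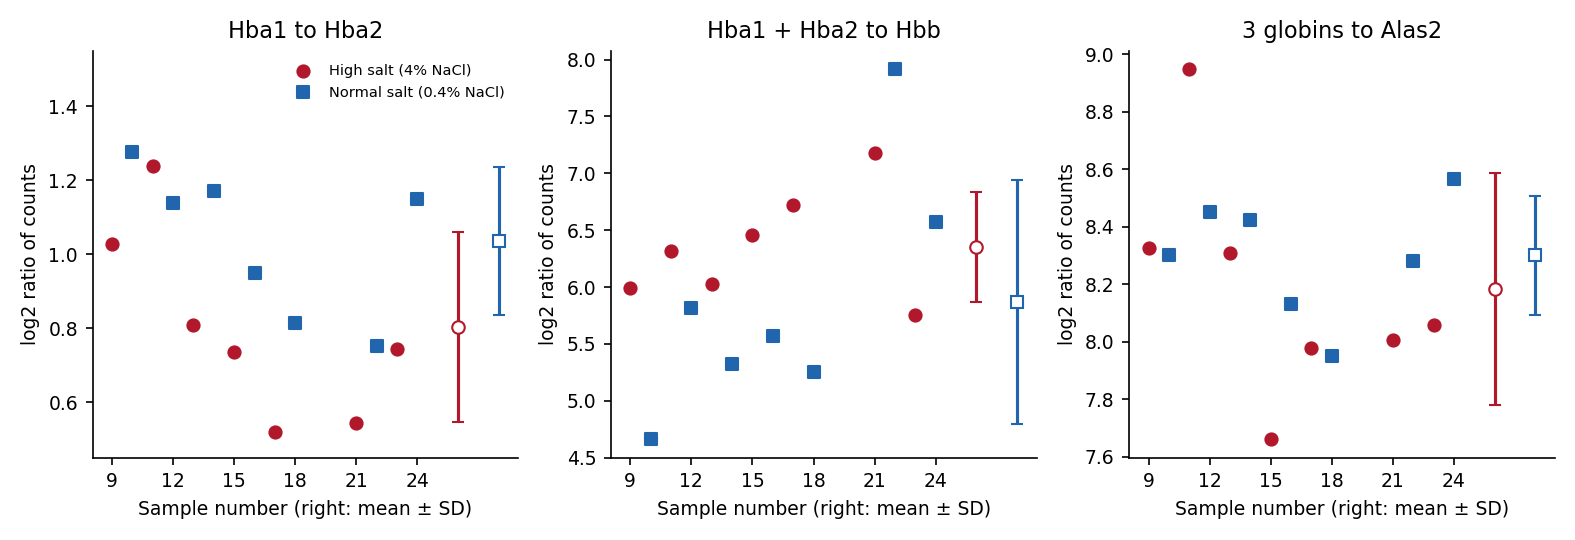
Log2 ratio of counts against the sample number for Hba1 to Hba2, alpha globin to Hbb and the 3 globins to Alas2, 1 point per library, with the mean and SD of each diet as open symbols at the right. The diets overlap in all 3 panels, and library 22 has the highest alpha to Hbb ratio.

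Few other genes followed the summed globins as closely as Alas2, which is no part of them. Among 8197 other genes averaging 5 CPM or more, the median Pearson r of log2 CPM with the summed globins over the 14 libraries was 0.05, 3 genes had r above 0.9 and 23 above 0.8, while 35 lay under -0.8 and 0 under -0.9. By the same measure Alas2 stood at 0.97 and Hbb at 0.83, a value that other genes exceeded although Hbb is part of the sum. With diet and sample number removed from both sides, 7 genes had r above 0.9 and 54 above 0.8. On the other side 90 lay under -0.8 and 7 under -0.9, and Alas2 stood at 0.98 and Hbb at 0.89. The 2 genes most alike were ENSRNOG00000047098 (r = 0.99) and ENSRNOG00000045989 (r = 0.98), which the files do not name. ENSRNOG00000047098 ran from 90.99 CPM in high salt replicate 15 to 1275 CPM in high salt replicate 17, a 14-fold range. Its r was 0.99 with Hba2 and 0.77 with Hbb. ENSRNOG00000045989 ran from 7.68 CPM in normal salt replicate 12 to 84.1 CPM in high salt replicate 17. By Pearson r the 2 with the most opposite pattern were ENSRNOG00000022576 (r = -0.88) and ENSRNOG00000011250 (r = -0.86). Both varied far less, from 13.2 to 29.4 CPM and from 21.3 to 87.2 CPM, lowest in high salt replicate 17 and highest in high salt replicate 21. By rho they held ranks 8187 and 8154 of 8197, so other genes were more opposite by that measure. All libraries enter both sides of these correlations with the same total, and genes are not independent replicates.

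**Figure D5:**
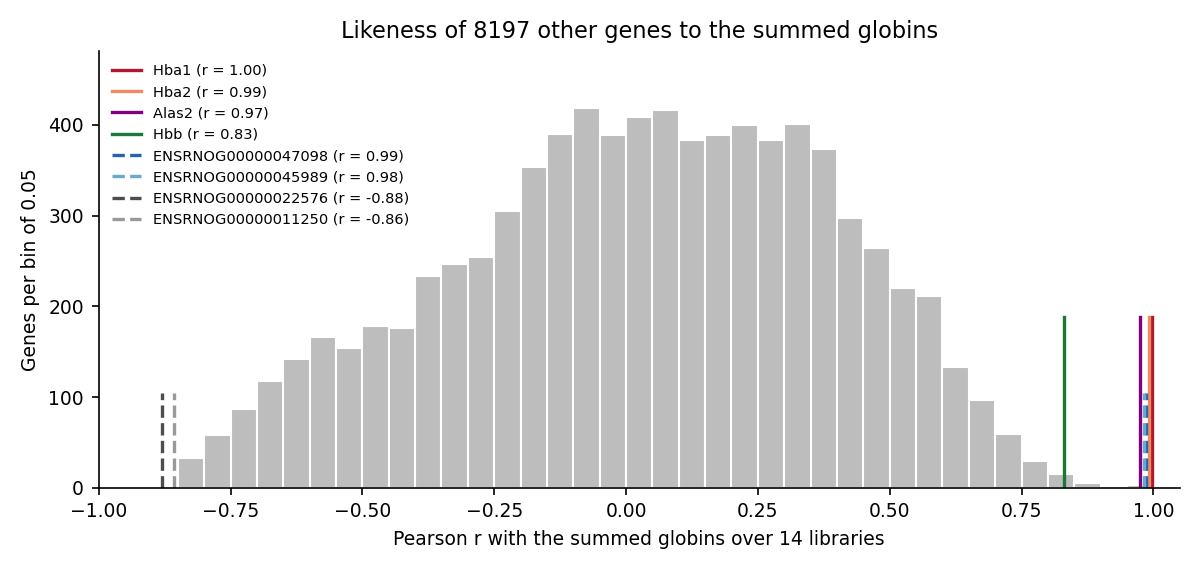
Number of the 8197 other genes in each bin of Pearson r with the summed globins (bars), with the r of the 4 members and of the 2 most alike and the 2 most opposite genes as lines, over 14 libraries. The 3 globins are part of the sum, Alas2 is not, and its r is 0.97.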

How the data were processed

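Glomerular RNA of 14 libraries was measured. The authors deposited raw counts per gene, and no gene had a mean below 3 counts. They also deposited a normalized signal, the counts divided by 1 factor per library (0.684 to 1.28), with each diet's mean, a signed fold and the log2 ratio of the means. The submitters' processing notes name R 3.4.3, DESeq2 1.18.1 and the mouse build GRCm38, with no role for any, although the IDs are of rat. The build and annotation behind the counts are therefore uncertain; RefSeq coordinates are of GRCr8. No aligner or counter was given in the sources used here.

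Tests on counts used edgeR 4.0.16 (R 4.3.3) with TMM factors and its robust quasi-likelihood fit, after filterByExpr, which removed 1776 genes, with a call at an adjusted p below 0.05. Trend fits held diet as a covariate. Standard errors were derived from the F statistic. CPM used library totals, and likeness used TMM log2 CPM with a prior count of 2. Correlations used 100000 permutations, or all orders for up to 8 libraries. The diet and number fits were also run on simulated data with changes placed in genes drawn at random. Those runs do not show what size of change could be found for the members. Alternatives were DESeq2 1.42.0, limma 3.58.1, other factors, filters, denominators and covariates, blocks of consecutive numbers, and each library left out. The members and lists were chosen with earlier results of these data known. Lists of other red cell, heme and cell type genes could not be applied, since 0 IDs matched a symbol. Named IDs are the members and the 2 most and 2 least alike genes. Fits on the summed globins and the library measures were added after seeing the data.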

Additional observations from a re-analysis of the deposited data

How the results depend on the processing

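Diet called 0 genes in each alternative run. The diet effect on the members was called in none. Its sign turned for Hbb within numbers 17 to 24 (1.33), for Hba1 with limma-trend on the authors' normalized values (-0.016) and within numbers 9 to 16 (-0.44), and within 9 to 16 for Hba2 (-0.33) and Alas2 (-0.46). The cause was not tested. Over the libraries left out in turn it ran from -0.60 to 0.14 for Hbb, -0.24 to 0.47 for Hba1, -0.14 to 0.80 for Hba2 and -0.13 to 0.70 for Alas2. The difference of mean CPM turned for Hba1 on the log2 scale (-0.13), within numbers 9 to 16 for Hba1 (-321.6), Hba2 (-108.1) and Alas2 (-1.77), and within 17 to 24 for Hbb (27.4). With single libraries left out it ran from -14.96 to 2.99 for Hbb, -270.9 to 403 for Hba1, -94.2 to 387.3 for Hba2 and -0.91 to 3.38 for Alas2.

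For the sample number, the fitted change turned for Hbb within high salt (0.96), and ran from -1.91 to 0.40 for Hbb over the libraries left out. With the summed globins as a covariate Hba1 stood at -0.07 for diet and -0.13 for the number; Hba1 is the largest part of that sum, so its own change is removed by construction and these 2 values say nothing of direction. The correlation with the number was 0.24 for Hbb within high salt, -0.175 (Hba1), -0.084 (Hba2) and -0.023 (Alas2) within 9 to 16, and -0.10, -0.22 and -0.26 within 17 to 24; for Hbb it ran from -0.376 to 0.056 with libraries left out. The count called for the number was 2191 with DESeq2 and 0 within either diet (fewer libraries). It was 0 for 9 to 16 against 17 to 24, where the lowest adjusted p was 0.05084 (edgeR). With libraries left out it ran from 451 (normal salt replicate 22) to 2118 (high salt replicate 23). It was 513 and 762 without normal salt replicate 10 or 12, and 547 and 926 without high salt replicate 9 or 21. The count for the summed globins was 53 with upper quartile factors, 6 with the stricter filter (fewer genes tested), 432 with DESeq2, 790 with limma voom and 117 with the number as a covariate, and ran from 8 to 426 with libraries left out.

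The correlations of Hbb did not pass within normal salt (0.64 with Hba1, 0.59 with Hba2, 0.68 with Alas2) or within 17 to 24 (0.78, 0.76 and 0.81), with fewer libraries in each. By Pearson r the other 3 pairs passed in each alternative run, whereas their rho did not pass within 17 to 24. The ratio trends turned for Hba1 to Hba2 within 17 to 24 (0.61) and for the globins to Alas2 within normal salt (0.071) and within 17 to 24 (0.74), as did the diet difference of alpha to Hbb within 17 to 24 (-0.027). With libraries left out the trend of Hba1 to Hba2 ran from -0.74 to -0.43. The interaction of diet and number ran from -0.73 to 2.08 for Alas2, -1.18 to 1.48 for Hba1 and -1.22 to 1.48 for Hba2, and the correlation of Hba1 with the share held by the top 10 genes from -0.41 to 0.13. The labels name no pairs, and the diets share no sample number. Blocks of consecutive numbers treated neighbouring numbers as pairs and gave 0 calls for diet. Alas2, with 20 counts in its lowest library, is the member most limited by depth.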

Other observations

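A fit over all genes asked which other transcripts followed the summed globins, with diet in the model. edgeR called 17 of 11154 genes (members left out), 11 higher and 6 lower with more globin. The 11 had slopes of 0.29 to 1.02 log2 units per log2 unit. Of these, 6 were above 0.8, from 0.814 to 1.02, beside 1.03 for Alas2. The 6 that fell had slopes between -0.45 and -0.30. ENSRNOG00000047098 (slope 0.98) and ENSRNOG00000045989 (slope 0.92) had the smallest adjusted p (edgeR, 1.163e-08 each). No ID could be named. The count depended strongly on the tool and on single libraries: DESeq2 called 432 and limma voom 790. Leaving out 1 library at a time, edgeR called 426 without high salt replicate 21, 113 when normal salt replicate 24 was dropped, and 64 when normal salt replicate 22 was. It called 8 to 11 when any 1 of high salt replicates 11, 13, 15, 17 and 23 (the last giving 8) or normal salt replicates 14, 16 and 18 was dropped.

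Globin content was also put into the model as a covariate. The count of genes called for diet was then 0 by edgeR (221 at an unadjusted p below 0.05), as without it. The count called for the trend with the sample number was 1341, beside 1418 without it.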
